A study of Mus musculus with 10 samples.

Results

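The genes described here make, break down, carry and sense retinoic acid, and they were chosen by gene symbol: Aldh1a2, Dhrs3 and Cyp26a1 for synthesis, its brake and breakdown, Crabp1 and Crabp2 for binding in the cytosol, and Rara, Rarb, Rarg and Rxra for the receptors. These 9 of the 12393 genes named on the array were read by 11 probe sets, out of 22626 that are not controls. A probe set is a group of short probes that read a transcript near its 3′ end, and some probe sets can match several genes. The tissue was the hindbrain together with pharyngeal arches 1 to 4, dissected from mouse embryos at stage E10.5. The mutant embryos were Fbln1 null, homozygous for a gene trap inserted in Fbln1 (5 arrays, numbered 3, 4, 5, 7 and 8), and the others were wildtype (5 arrays, numbered 1 to 5). Both genotypes came from matings between carriers of 1 trapped copy, with no treatment, and the strain background and litter of each embryo are not given in the sources used here. Fbln1 encodes fibulin-1, a secreted protein of the extracellular matrix, and the series asked how it bears on signalling by fibroblast growth factor 8. Every p-value below therefore rests on how much these embryos vary, and 5 arrays a genotype limit how small a change can be seen.

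Retinoic acid is made from vitamin A in 2 oxidation steps, the second of which Aldh1a2 carries out in the mesoderm beside the hindbrain. It enters nuclei and binds retinoic acid receptors, which pair with retinoid X receptors on DNA and switch target genes. Cyp26 enzymes destroy it, so that the posterior hindbrain and posterior arches are exposed and more anterior tissue is spared, and this patterning sets Hox gene borders and arch identity. Several genes of the pathway, among them Cyp26a1, Rarb and Dhrs3, are themselves switched on by retinoic acid and are widely used as readouts of it.

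Retinoic acid receptors bind paired copies of a 6-base half-site, and the form with 5 bases between the copies is the classic element of target genes. Promoters of RefSeq genes (GRCm38.p6, from 250 bases before the start of transcription to 50 after it) were searched on both strands for 2 half-sites in the same orientation with any 5 bases between them. The half-sites accepted were the consensus AGGTCA and its variants, which were AGTTCA, then the form that begins the Rarb element (GGTTCA), and finally GGGTCA as the remaining one. The table held 15 promoters of 8 member genes, and none for Crabp2. The Rarb and the Cyp26a1 promoter held a match, as did 32 of all 32851 promoters (0.0974%). The Rarb match was fixed in advance, because the accepted half-sites include both copies of its element, GGTTCA and AGTTCA. The stretches around both matches are shown because these genes are the readouts discussed below, with the matched element in capitals, on the strand of the gene.
Rarb, chr14:16575477-16575589, minus strand: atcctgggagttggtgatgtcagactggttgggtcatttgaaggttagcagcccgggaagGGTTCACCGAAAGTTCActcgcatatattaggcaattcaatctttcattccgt
Cyp26a1, chr19:37697716-37697807, plus strand: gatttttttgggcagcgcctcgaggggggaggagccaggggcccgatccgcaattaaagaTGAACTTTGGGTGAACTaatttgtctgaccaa
The Rarb element lies 53 to 37 bases before the start. The Cyp26a1 element lies 32 to 16 bases before the start and reads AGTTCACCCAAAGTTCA on the opposite strand. With a spacer of 1 base the search matched 73 promoters and with 2 bases 88, with 0 member promoters in either case. These searches share half-sites, so 1 stretch can count in more than 1 of them. A match describes the letters in this window only.

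No member passed the test for a change in Fbln1-null tissue. Of the 11 probe sets, 4 were over the expression filter (a log2 signal over 4 on at least 5 of the 10 arrays), and they read Cyp26a1, Crabp1, Crabp2 and Rxra. Of these, 0 passed an adjusted p of 0.05 in the limma fit over all 9801 probe sets kept, where 0.0204% of probe sets passed, and 0 had an unadjusted p under 0.05, where 12.4% did. The null and wildtype arrays overlapped for all 4, while 2.77% of kept probe sets had groups that did not overlap. The other 7 probe sets, which read Aldh1a2, Dhrs3, Rara, Rarb, Rarg and Rxra a second time, were under the filter.

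The deposited signals had medians of 3.20 to 3.29 per array on the log2 scale, correlations between arrays across probe sets of 0.985 to 0.996, and 9618 to 9943 probe sets over log2 4. Fbln1 itself had a log2 signal of 2.66 ± 0.13 in null and 4.55 ± 0.50 in wildtype tissue (SD, n = 5 each) on its brighter probe set, and every null array lay below every wildtype array. Its log2 fold change was -1.88 (SE 0.22, limma adjusted p = 0.0715 over all 22626 probe sets). The exact permutation p, two-sided, was 0.00794, and no smaller one is possible with this many arrays. Both Fbln1 probe sets were under the filter, the brighter being over log2 4 on 4 arrays. The dimmer had a log2 fold change of -1.12 (limma adjusted p = 0.303). Of the hindbrain and neural tube markers that the array holds, 6 of 14 passed the filter, with Sox1 at the bottom of the scale, and of the arch mesenchyme and neural crest markers 7 of 15 were, with Foxd3 at the bottom. Of the posterior axial markers, Hox genes and Cdx2, 0 of 9 were over it. Wildtype array 4 was from a female embryo by its Xist signal and the other 9 arrays had Y-linked signal.

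Cyp26a1, the hydroxylase that starts the breakdown of retinoic acid, was over the filter on all 10 arrays. Its log2 signal was 6.47, 6.82, 6.75, 7.42 and 6.87 in null arrays 3, 4, 5, 7 and 8, against 6.93, 6.64, 6.87, 6.41 and 6.99 in wildtype arrays 1 to 5. Null array 7 was the highest of the 10, wildtype array 4 the lowest, and the rest of the 2 groups interleaved. Cyp26a1 thus changed by 0.10 on the log2 scale (SE 0.18, limma adjusted p = 0.871), with a 95% interval of -0.29 to 0.49. On the linear scale that interval runs from 0.820-fold to 1.40-fold. Without null array 7 the log2 fold change was -0.038, so its sign rested on that embryo.

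Crabp1, a cytosolic protein that binds retinoic acid and is a familiar marker of cranial neural crest and hindbrain neurons, had log2 signals of 11.69, 11.64, 12.05, 11.45 and 11.64 in null arrays 3, 4, 5, 7 and 8. Wildtype arrays 1 to 5 had 11.80, 11.85, 11.53, 11.46 and 11.84. Both groups had a mean of 11.7, and both the highest and the lowest array were null. The 95% interval of the log2 fold change was -0.31 to 0.31, or 0.809-fold to 1.24-fold (limma adjusted p = 0.999). By unadjusted p, 99.8% of kept probe sets ranked before it.

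Crabp2, which hands retinoic acid to its receptors in the nucleus, had log2 signals of 11.76, 11.88, 12.01, 11.89 and 12.30 in null arrays 3, 4, 5, 7 and 8. In wildtype arrays 1 to 5 it had 11.73, 12.01, 11.79, 12.44 and 12.21. Wildtype array 4 was the highest and wildtype array 1 the lowest, so the null arrays lay within the wildtype range. Null minus wildtype came to -0.070 (SE 0.16, limma adjusted p = 0.898), with a 95% interval of -0.42 to 0.28, or 0.749-fold to 1.21-fold. Without wildtype array 4, the female embryo, the log2 fold change was 0.030. Only 1 array was female, so sex and that embryo cannot be told apart.

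Rxra, the retinoid X receptor that pairs with all 3 retinoic acid receptors and with other nuclear receptors, varied most among the members over the filter. Its log2 signal was 6.16, 5.49, 6.04, 4.65 and 6.05 in null arrays 3, 4, 5, 7 and 8, against 6.66, 6.54, 5.35, 5.20 and 5.68 in wildtype arrays 1 to 5. Wildtype arrays 1 and 2 were above every other array, and null array 7 was below every other. The means were 5.68 ± 0.63 in null and 5.89 ± 0.68 in wildtype tissue (SD, n = 5 each). That is -0.21 on the log2 scale (SE 0.34, limma adjusted p = 0.861). The 95% interval, -0.95 to 0.54, was the widest of the 4 and holds changes from 0.516-fold to 1.46-fold. Without wildtype arrays 1 and 2 the log2 fold change was 0.27 (adjusted p = 0.804), and without null array 7 it was 0.051. Its second probe set read 2.28 to 2.30 on all 10 arrays, the bottom of the scale, and gave no fold.

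**Figure D1:**
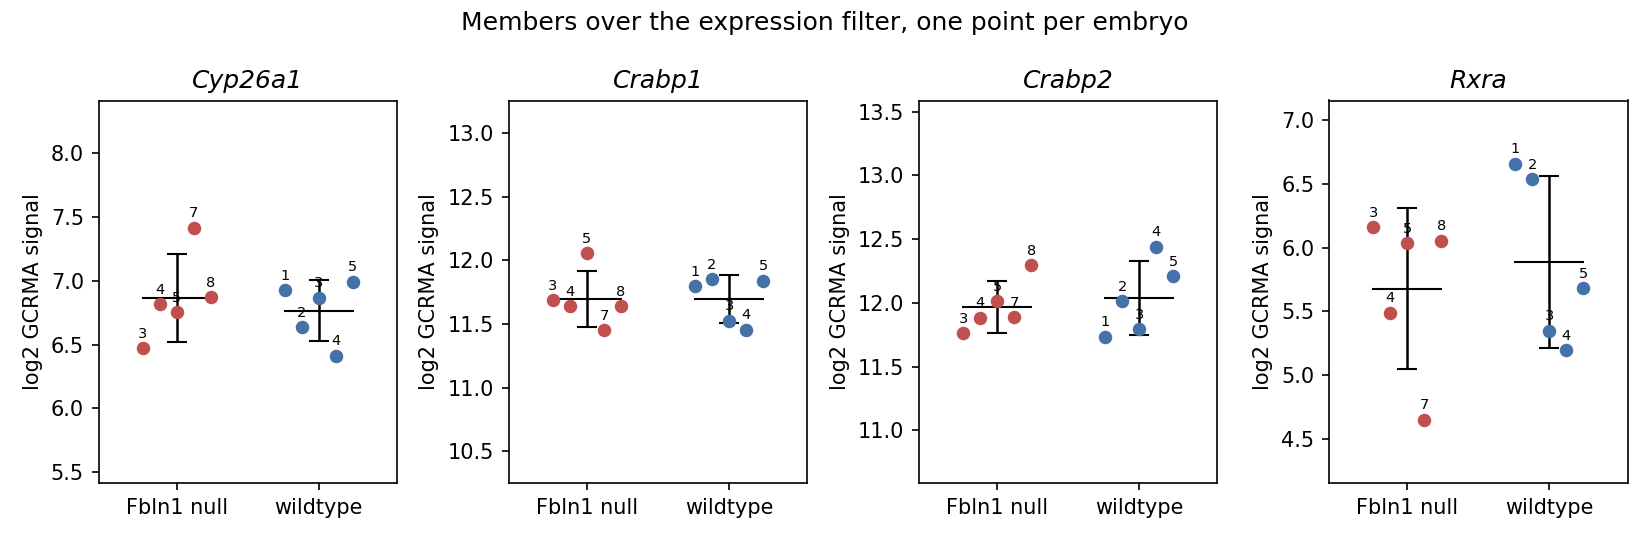
Log2 GCRMA signal (vertical axis) of Cyp26a1, Crabp1, Crabp2 and Rxra in Fbln1-null and wildtype tissue, with 1 point per array labelled by replicate number, a horizontal bar at the mean and whiskers of 1 SD (n = 5 each). All panels span the same number of log2 units, and the groups overlap in each, with Rxra spread the widest from 4.65 to 6.66.

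The enzyme that makes retinoic acid in this region was near the bottom of the measurable range. Aldh1a2 had log2 signals of 3.10, 3.23, 3.06, 2.72 and 3.06 in null arrays 3, 4, 5, 7 and 8, against 4.15, 3.95, 2.98, 3.05 and 3.14 in wildtype arrays 1 to 5. Wildtype arrays 1 and 2 stood above the other 8, and the remaining wildtype arrays lay inside the null range. The log2 fold change in the fit without a filter was -0.42 (SE 0.25, limma adjusted p = 0.780 over 22626 probe sets, two-sided exact permutation p = 0.222). Without wildtype arrays 1 and 2 it was -0.026, so almost all of the difference in means came from those embryos.

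Dhrs3, which turns retinaldehyde back into retinol and so limits synthesis, was over log2 4 on 4 arrays, 1 fewer than the filter asked. It had 3.92, 5.33, 4.17, 3.90 and 3.72 in null arrays 3, 4, 5, 7 and 8, and 4.58, 4.54, 3.76, 3.95 and 3.05 in wildtype arrays 1 to 5. Null array 4 was the highest and wildtype array 5 the lowest, with wildtype arrays 1 and 2 next to the top. Fitted without a filter, the difference was 0.23 (SE 0.39, limma adjusted p = 0.865, exact permutation p = 0.587). It was -0.049 without null array 4, -0.00083 without wildtype array 5 and 0.62 without wildtype arrays 1 and 2.

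Rarb, the receptor that carries the element shown above and is itself a target of retinoic acid, had the smallest unadjusted p of the members. Its log2 signals were 3.67, 4.19, 3.92, 3.57 and 3.56 in null arrays 3, 4, 5, 7 and 8, against 3.38, 3.59, 3.55, 3.15 and 3.56 in wildtype arrays 1 to 5. Null arrays 3, 4 and 5 lay above all wildtype arrays, and null arrays 7 and 8 within their range. Fitted without a filter, Rarb had a log2 fold change of 0.33 (SE 0.14, 95% interval 0.015 to 0.65), with an unadjusted limma p of 0.0420 and an adjusted p of 0.679. Of all 22626 probe sets 7.11% had an unadjusted p under 0.05, so 1 of the 11 member probe sets is near that background. The exact permutation p was 0.0397, not adjusted over the members. The sign held in all 18 alternatives run for Rarb, with 0.23 to 0.39 when 1 array was left out. Only null array 4 was over log2 4, and with values under log2 4 raised to 4 the log2 fold change was 0.038. With the ratio of the 3′ to the 5′ actin control probes as a covariate it was 0.20. That log2 difference was 2.59, 2.45, 2.85, 2.33 and 2.19 in null arrays 3, 4, 5, 7 and 8, against 2.0 to 2.4 in wildtype arrays.

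Rarg and Rara, the other retinoic acid receptors, were dim or unmeasured. On its brighter probe set Rarg had 3.06, 3.18, 3.06, 2.37 and 2.32 in null arrays 3, 4, 5, 7 and 8, against 3.45, 3.06, 3.06, 3.29 and 3.06 in wildtype arrays 1 to 5. Null arrays 7 and 8 lay below all others, and the remaining null arrays at wildtype level. The difference was -0.39 on the log2 scale (SE 0.19, limma adjusted p = 0.773, exact permutation p = 0.151), over a range where every array was below the filter. The second Rarg probe set and the only Rara probe set read 2.28 to 2.38 and 2.28 on all arrays, which is the bottom of the scale, so neither gives a fold. A reading at the bottom says that these probes gave no signal above background, not that the receptor was missing from the tissue.

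**Figure D2:**
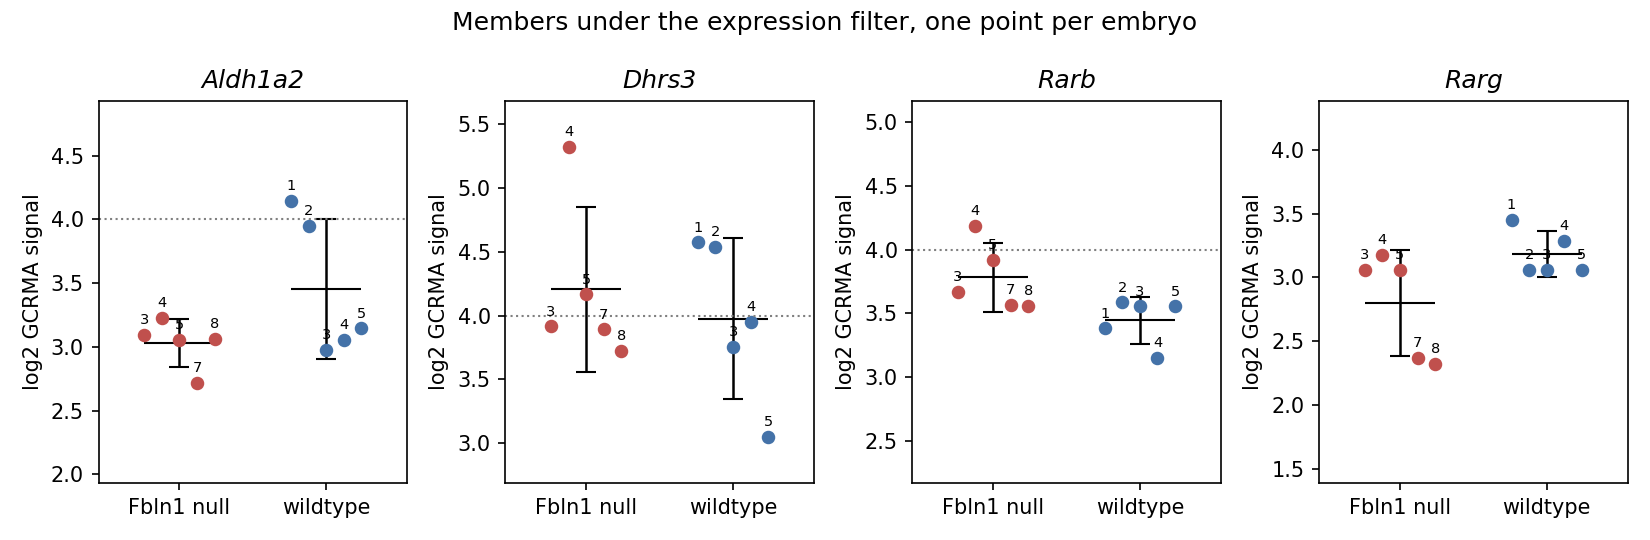
Log2 GCRMA signal (vertical axis) of Aldh1a2, Dhrs3, Rarb and the brighter probe set of Rarg in Fbln1-null and wildtype tissue, with 1 point per array labelled by replicate number, a horizontal bar at the mean and whiskers of 1 SD (n = 5 each). The dotted line, where drawn, marks the filter at log2 4, and wildtype arrays 1 and 2 are the highest for Aldh1a2 and the highest wildtype arrays for Dhrs3.

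Wildtype arrays 1 and 2 were thus the 2 highest arrays for Rxra and Aldh1a2 and the 2 highest wildtype arrays for Dhrs3, but not for Cyp26a1, Crabp1, Crabp2, Rarb or Rarg. Some tissue markers were also high in them. The summed log2 signal of the 6 hindbrain and neural tube markers over the filter (Hoxa2, Irx3, Nes, Pax3, Pax6 and Sox2) was 36.7 to 39.4 in null arrays. It was 41.4 in both of these wildtype arrays and 38.1 to 39.5 in the remaining 3. For the 6 of 12 somite and paraxial mesoderm markers over the filter the sum was 33.9 to 38.3 in null arrays. It was 38.5 and 38.6 in wildtype arrays 1 and 2 and 36.0 to 36.7 in the remaining 3, and Tbx6, Mesp2 and Uncx were at the bottom of the scale on all arrays. Pax3 counts in both the hindbrain sum and the somite sum. For the 7 of 15 arch mesenchyme and neural crest markers over the filter the sum was 45.1 to 49.0 in null arrays. It was 49.3 in wildtype array 1, the highest of all, and 47.7 in wildtype array 2, which null arrays 3, 4 and 5 exceeded, with 45.3 to 46.8 in the remaining 3. Heart and epicardium markers (3 of 12 over the filter) summed to 17.2 to 18.2 in null arrays, and wildtype arrays 1 and 2 were the lowest of the wildtype arrays, at 17.2 and 17.9 beside 18.2 to 19.8. The part of these markers in the Aldh1a2, Rxra and Dhrs3 values was not tested. In bulk tissue, fewer cells of a type and less RNA per cell cannot be told apart.

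Markers of further tissues overlapped between the genotypes. The summed log2 signal of 9 neuronal markers was 76.5 to 81.5 in null and 73.0 to 81.5 in wildtype arrays. For 3 of 12 heart and epicardium markers it was 17.2 to 18.2 in null and 17.2 to 19.8 in wildtype arrays, with Myh6 and Upk3b at the bottom. For 6 of 9 endoderm and surface ectoderm markers it was 32.7 to 36.8 in null and 33.3 to 37.2 in wildtype arrays, with Nkx2-1 at the bottom. Wildtype arrays 1 and 2 were again the highest wildtype arrays there, at 36.2 and 37.2 beside 33.3 to 35.9. Null arrays 3 and 5 exceeded wildtype array 1, and Pax1 counts in both this sum and the somite sum. Of forebrain, midbrain and eye markers 1 of 7 was over the filter, and En1, Rax and Vax2 were at the bottom. For 3 of 7 endothelial markers the sum was 19.3 to 20.2 in null and 19.5 to 20.6 in wildtype arrays, and for 3 of 7 erythroid markers 35.3 to 37.6 in null and 32.7 to 37.3 in wildtype arrays, with Hba-a1 at the bottom.

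The genes whose levels followed each member most closely over the 10 arrays were sought among 5908 other genes. Crabp1 went with Ckb, the brain creatine kinase (Pearson r = 0.950), and Ndufv1, a subunit of respiratory complex I (r = 0.945). Crabp2 went with Hax1 (r = 0.962), a mitochondrial protein, and Kars, the lysyl-tRNA synthetase (r = 0.957). Rxra went with Scara3 (r = 0.968) and Ncapd2 (r = 0.967), a condensin subunit, and Cyp26a1 with Mcts1 (r = 0.903) and Abcf3 (r = 0.863). These are the highest of 5908 values each over 10 arrays that share their normalization, and they are given as a description.

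Other genes of retinoid metabolism and transport did not pass the test either. Of 35 listed genes 31 were on the array and 11 over the filter, each read by its brightest probe set. Of these, 5 had a higher and 6 a lower mean in null tissue, with a median log2 fold change of -0.018, against -0.038 for all 5912 genes tested. At an adjusted p of 0.05 there were 0 of 11 genes, against 0.0338% of all genes, and at an unadjusted p of 0.05 also 0, against 12.8%. Dhrs4, a reductase of retinaldehyde, changed by -0.23 on the log2 scale (SE 0.12, limma adjusted p = 0.462) and -0.21 on its dimmer probe set. Rdh13, a mitochondrial retinol dehydrogenase, had 0.24 (SE 0.13), and Cyp1b1, a cytochrome able to oxidise retinol, had -0.45 (SE 0.30). Cyp1b1 was near the filter, at 3.98 to 4.67 in wildtype arrays and 4.07 to 4.52 in null arrays 3, 4 and 7. Null arrays 5 and 8 lay below these, at 2.72 and 3.31. Rdh10, which carries out the first step of synthesis and was picked out after its value was seen, had 6.75 ± 0.20 in null and 6.77 ± 0.36 in wildtype tissue (SD, n = 5 each). Without wildtype arrays 1 and 2 the median of the list was -0.18, against -0.028 for all 5912 genes. There 7 of 11 were lower, against 3213 of 5912, and 0 stood at an unadjusted p of 0.05, against 11.6%.

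Among receptors and coregulators the members with the smallest p were orphan receptors and a deacetylase. Of 29 listed genes 26 were on the array and 18 over the filter, with 9 higher, 9 lower and a median of -0.0067. At an unadjusted p of 0.05 stood 3 of 18 (16.7%), 2 higher and 1 lower, near the 12.8% of all genes, and 0 passed the adjusted threshold. Nr2c2, the testicular orphan receptor 4, which can occupy the same DNA elements, had log2 signals of 7.80, 7.85, 8.19, 8.01 and 8.28 in null arrays 3, 4, 5, 7 and 8. Wildtype arrays 1 to 5 had 7.39, 7.42, 7.35, 7.89 and 7.53, so wildtype array 4 reached into the null range. Nr2c2 differed by 0.51 on the log2 scale (SE 0.14, limma adjusted p = 0.199), and 0.31 on the dimmer probe set. Hdac3, the deacetylase of the corepressor complex that unliganded receptors recruit, had -0.59 (SE 0.18, limma adjusted p = 0.236) on a probe set of a type that can match several genes. Nr2f2, or COUP-TFII, an orphan receptor induced by retinoic acid, had 0.31 (SE 0.12, limma adjusted p = 0.336), with 0.24 and 0.05 on its dimmer probe sets. Without wildtype arrays 1 and 2 the count at an unadjusted p of 0.05 was 5 of 18 (27.8%), against 11.6% of all genes. There 13 of 18 were higher, against 2699 of all 5912 genes, with a median of 0.039 against -0.028. The 13 higher log2 fold changes went down to 0.00015.

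Genes known to respond to retinoic acid in the hindbrain and trunk had mostly lower means, and this depended on wildtype arrays 1 and 2. Of 42 listed genes 33 were on the array and 20 over the filter. Of these, 15 had a lower mean in null tissue, with a median log2 fold change of -0.20, while 56.9% of all genes had a lower mean. Without wildtype arrays 1 and 2 there were 9 lower and 11 higher, with a median of 0.0013. All genes then had 3213 of 5912 lower and a median of -0.028. That count was added after the data were seen, and no other pair of arrays was left out for comparison. At an unadjusted p of 0.05 stood 3 of 20 (15%), 1 higher and 2 lower, near the 12.8% of all genes, and 0 passed the adjusted threshold. Without wildtype arrays 1 and 2 it was also 3 of 20, against 11.6% of all genes. Tshz1, picked out after its value was seen, then stood in place of Meis2, with 0.59 (SE 0.17, limma adjusted p = 0.278). Pax6, a neural progenitor factor that is also among the hindbrain markers above, had 5.63 ± 0.21 in null and 6.16 ± 0.26 in wildtype tissue (SD, n = 5 each, log2 fold change -0.52, SE 0.15, limma adjusted p = 0.222). It had -0.64 without wildtype arrays 1 and 2. Hoxa2 and Sox2 of this list are also summed among the hindbrain markers above, so the list and that sum share values. Nr2f2, in this list too, is given above.

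Meis2, a Hox cofactor induced by retinoic acid, was the 1 gene of the 20 whose groups did not overlap, against 2.88% of all genes. Its log2 signal was 9.11, 9.05, 8.87, 9.18 and 8.93 in null arrays 3, 4, 5, 7 and 8, against 9.22, 9.53, 9.27, 9.31 and 9.22 in wildtype arrays 1 to 5. The highest null array lay just under the lowest wildtype array. Null minus wildtype was -0.28 (SE 0.12, limma adjusted p = 0.343), and -0.24 without wildtype arrays 1 and 2, where its 95% interval of -0.53 to 0.055 held 0.

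**Figure D3:**
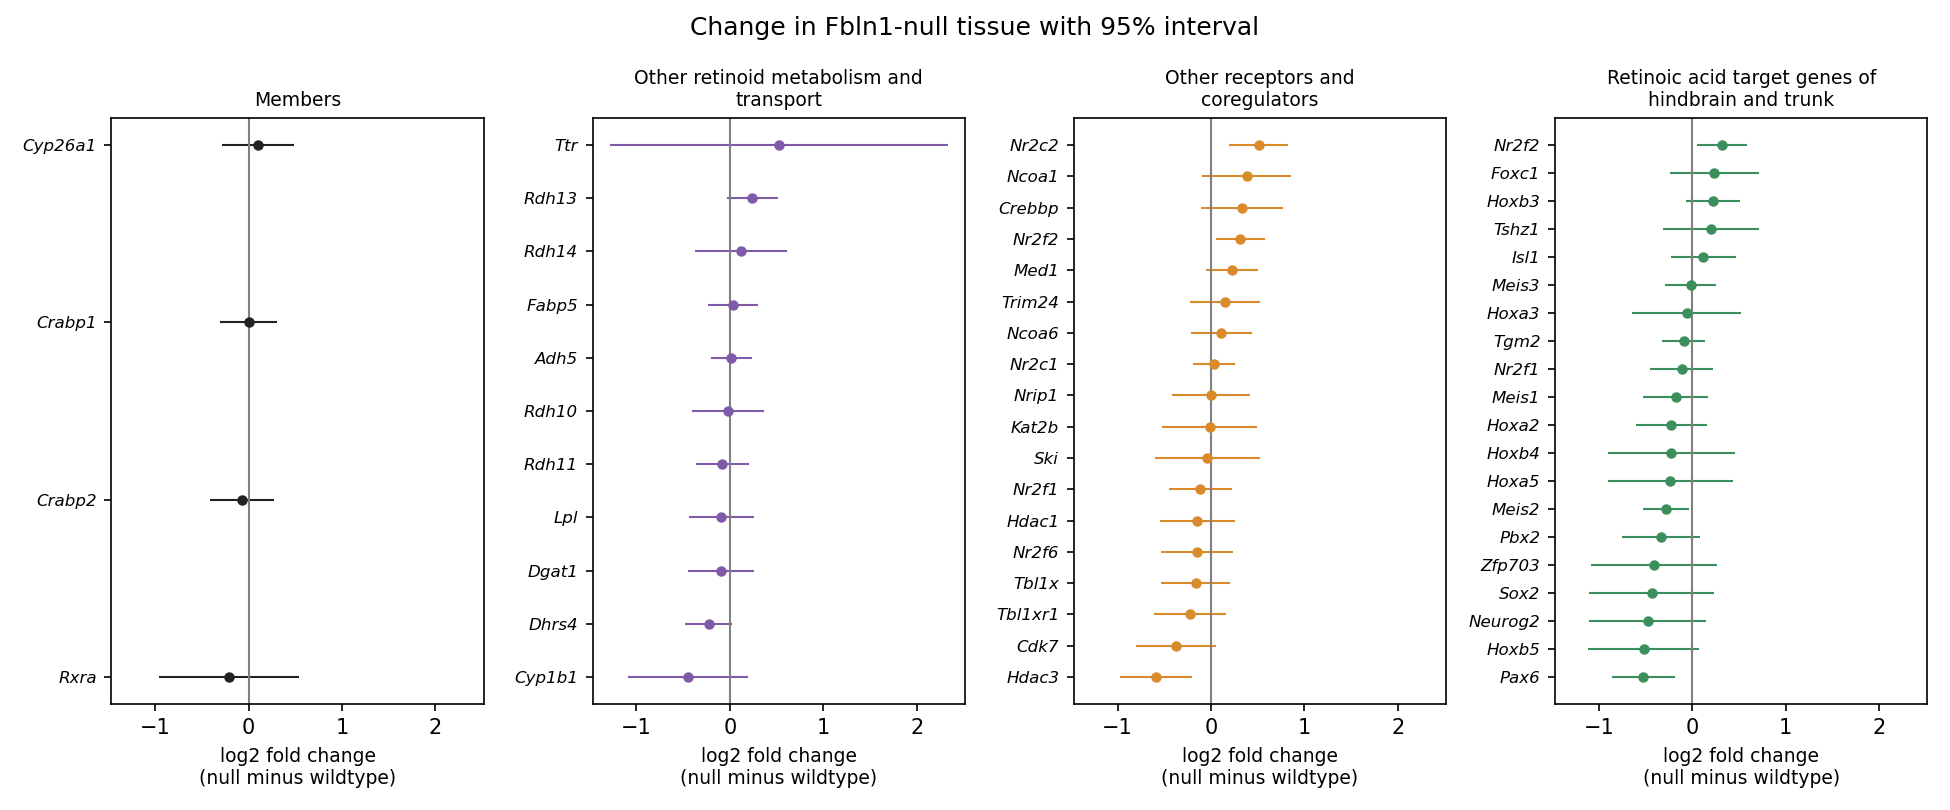
Log2 fold change, null minus wildtype (horizontal axis), with its 95% interval from the limma fit, for the members over the filter and for the 3 lists of other pathway genes, each gene by its brightest probe set. The intervals of all 4 members hold 0, and those of Nr2c2, Hdac3, Nr2f2, Pax6 and Meis2 do not hold it, without adjustment for the number of genes and with wildtype arrays 1 and 2 included.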

How the data were processed

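RNA of each embryo was labelled with biotin by a 3′ kit for Affymetrix arrays, per the labels' protocols. The values the authors deposited are on a log2 scale, 1 per probe set, and came from GCRMA according to the submitters' processing notes, with its version not given in the sources used here. GCRMA subtracts a background predicted from probe sequence, so dim probe sets gather at a floor and their fold changes are compressed. The values ran from 2.22 to 14.8.

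Of 22690 probe sets 64 controls were left out. Of the other 22626, 20380 had 1 gene symbol in the platform annotation, 691 several and 1555 none, and 20351 matched the RefSeq gene table. Probe sets over log2 4 on at least 5 of 10 arrays (9801) were fitted with limma 3.58.1 in R 4.3.3 (lmFit, eBayes, genotype only, two-sided, Benjamini-Hochberg over all of them). Dim members come from the same fit over all 22626. Exact permutation tests covered all assignments of 5 and 5 arrays. "Bottom of the scale" means under 2.5 on every array. The fit was checked on simulated data.

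Named genes were the members, Fbln1, the 3 genes of smallest p in each pathway list and the 2 genes most correlated with each member over the filter. The members, lists and alternatives were chosen with earlier results of these data known. Replicate numbers 3, 4 and 5 occur in both genotypes, but same-numbered arrays did not deviate together (correlations -0.19, -0.34 and 0.16), so no pairing was used.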

Additional observations from a re-analysis of the deposited data

Results flagged for a closer look

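Null array 4 stood apart from the other null arrays for Dhrs3, with a log2 signal of 5.33 against 3.72 to 4.17 in the rest, a gap of 0.724 of the group's range, where Dixon's critical value is 0.71. Over the members 16 groups of 5 arrays were examined and this 1 was set apart, and chance alone sets apart about 1 in 20 groups.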

How the results depend on the processing

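The count of 0 members past an adjusted p of 0.05 held in all 22 alternatives run, and so did the count of 0 other pathway genes. In the alternatives where 0 of all probe sets passed, given below, neither count could have differed. At an unadjusted p of 0.05 the member count was 1 without a filter (Rarb) and 1 with the replicate block (Rxra), and 0 in the other 19. The number of all probe sets past the threshold, 2, was 1 without a filter, 34 with a log2 6 filter or array weights, 8 with a trended robust variance, 46 at an adjusted p of 0.1, and 0 with the replicate block, the sex covariate, the actin ratio covariate or without wildtype arrays 1 and 2. It was 0 to 7 with 1 array left out. The Fbln1 log2 fold change was -2.04 with array weights (limma adjusted p = 0.0421) and -2.06 to -1.74 with 1 array left out, passing the threshold without wildtype array 3 (adjusted p = 0.0173). With values under log2 4 raised to 4 it was -0.58 (adjusted p = 0.271), with the replicate block -1.65 (adjusted p = 0.416), and without wildtype arrays 1 and 2 -1.57 (adjusted p = 0.0892).

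Signs of some uncalled members turned, while that of Rarb did not. With the replicate block, Cyp26a1 had -0.077, Rxra 0.49 (adjusted p = 0.345) and Aldh1a2 0.067. That fit rests on the 3 shared numbers, and of the null arrays with a shared number 1 of 3 correlated best with its own. Crabp1 had -0.068 with array weights, -0.059 with sex in the model and -0.18 with the actin ratio, and Crabp2 had 0.030 with sex and 0.077 with the actin ratio. Wildtype array 4 was the only female, so the fit with sex gives the same values as leaving that array out. They are not separate alternatives. Rxra had 0.27 without wildtype arrays 1 and 2. With 1 array left out the log2 fold change ran from -0.038 to 0.20 for Cyp26a1, -0.090 to 0.061 for Crabp1, -0.15 to 0.030 for Crabp2, -0.38 to 0.051 for Rxra and -0.049 to 0.38 for Dhrs3. For Aldh1a2 it ran from -0.54 to -0.25, for Rarb from 0.23 to 0.39 and for Rarg from -0.48 to -0.27, with no turn. The causes of the turns above were not tested. Signals near log2 4 limit Aldh1a2, Dhrs3, Rarb and Rarg, whose fold changes can be compressed, and signals at the bottom leave Rara unmeasured. Counts without wildtype arrays 1 and 2 for the pathway lists were added after the data were seen.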
